A study of Mus musculus with 15 samples.

Results

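Caspases and the Bcl2 family run the intrinsic and death receptor routes of apoptosis, the ordered self-destruction of a cell. Of the 8 genes Casp8, Casp9, Apaf1, Bcl2, Bcl2l1, Bcl2l11, Bax and Bak1, 7 were measured here, out of 18193 genes on the array, by 22 of the 45037 probe sets tested. They were found by gene symbol in the annotation of the array, keeping every probe set of a gene. These were 1 probe set of Casp8, 3 of Casp9, 2 of Apaf1, 5 of Bcl2, 4 of Bcl2l1, 5 of Bcl2l11 and 2 of Bak1. Bax, which together with Bak1 opens the outer mitochondrial membrane, was not analysed here.

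The samples were 15 RNA pools of newborn mouse pituitary at postnatal day 1, each on 1 Affymetrix Mouse Genome 430 2.0 array. There were 5 pools of Prop1df/df on the DF/B background, 5 of Pit1dw/dw on DW/J and 5 of Pit1+/+ on DW/J. All mice had high fat chow. How many pituitaries made up a pool is not given. Pit1 is the transcription factor that drives the growth hormone, prolactin and thyrotropin cells, and Pit1dw is the Snell dwarf allele. Mutant and wild type shared a background in the Pit1 comparison, whereas in both comparisons of Prop1df/df genotype and background cannot be told apart. Probe sets for Pit1 itself were not analysed here.

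In death receptor signalling, a ligand brings receptors together and Casp8 is activated on the receptor complex. In the mitochondrial route, BH3-only proteins such as Bim, the product of Bcl2l11, occupy the guardians Bcl2 and Bcl-xL and let Bax and Bak1 open the mitochondrion. Cytochrome c then assembles with Apaf1 into the apoptosome, which activates Casp9, and Casp9 cleaves the executioner caspases. The enzymes are held as inactive precursors, so a transcript level is not a measure of their activity. In the pituitary, as in other glands, apoptosis removes surplus cells as the tissue is remodelled.

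The promoters of Bcl2 and Apaf1 are shown because these genes gave the member probe sets whose pools separated Prop1df/df from Pit1dw/dw. Each sequence is the 250 bases before the annotated start, read 5′ to 3′ on the gene's own strand, from RefSeq on GRCm38.p6. Capitals mark the GC box GGGCGG or its reverse complement, the core bound by Sp1-type factors. The Bcl2 window lies at chr1:106714291-106714540 on the minus strand, and the Apaf1 window at chr10:91082744-91082993 on the minus strand.
Bcl2: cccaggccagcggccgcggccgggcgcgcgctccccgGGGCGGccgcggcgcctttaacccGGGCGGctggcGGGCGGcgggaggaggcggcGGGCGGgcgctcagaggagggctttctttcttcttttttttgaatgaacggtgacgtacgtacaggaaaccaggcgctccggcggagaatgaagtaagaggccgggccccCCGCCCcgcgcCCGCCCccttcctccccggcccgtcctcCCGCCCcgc
Apaf1: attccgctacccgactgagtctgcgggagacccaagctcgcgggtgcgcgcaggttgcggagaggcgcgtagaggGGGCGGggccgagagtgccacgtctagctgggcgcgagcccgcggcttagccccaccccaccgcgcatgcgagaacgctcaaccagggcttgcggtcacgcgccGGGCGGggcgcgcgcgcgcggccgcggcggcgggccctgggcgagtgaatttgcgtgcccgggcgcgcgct
The Bcl2 window held 7 GC boxes and was 74.8% G and C, and the Apaf1 window held 2 and was 75.6% G and C. Over the 7 measured genes there were 10 windows of 250 bases, of which 5 held a GC box, against 32.7% of 32851 RefSeq windows of that length. The Casp8 window, the 3 Bcl2l1 windows and the second Bcl2l11 window lay inside the annotated span of their gene, not before it. The Casp8 and Bcl2l1 windows held 0 GC boxes. CCAAT was in 3 of the 10 member windows and in 33.8% of all windows. TATAAA and TGACGTCA (the cAMP response element) were in 0 of the 10, against 12.4% and 1.55% of all windows. Both strands were searched. The letters describe these windows and say nothing of binding.

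Some pools stood apart. Array medians ran from 4.31 to 4.43 on the log2 RMA scale, and Pearson correlations between pools of a group ran from 0.947 to 0.992. Prop1df/df pools 1, 2 and 3 had growth hormone (Gh) signals of 13.6, 14.1 and 14.0, against 9.0 and 10.2 in Prop1df/df pools 4 and 5, 7.2 to 10.3 in Pit1dw/dw and 14.1 to 14.3 in Pit1+/+. Growth hormone at that level goes against the label, since both mutants are known to lack growth hormone cells. Prph, a marker of peripheral neurons, was above 7 in Prop1df/df pools 3 and 4, Pit1dw/dw pools 2 and 3 and Pit1+/+ pool 3. Pit1+/+ pool 1 carries the genotype entry Prop1df/df beside a Pit1+/+ title. On a scale where the Pit1 groups lie at 0 and Prop1df/df at 1, it lay at -0.0013, but this scale does not separate strain from genotype. Pit1+/+ pool 5 had the lowest mean correlation with its own group, 0.961. Calls of apoptosis genes are given with and without the pools high in Gh or in Prph, and the marker counts only with them.

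**Figure D1:**
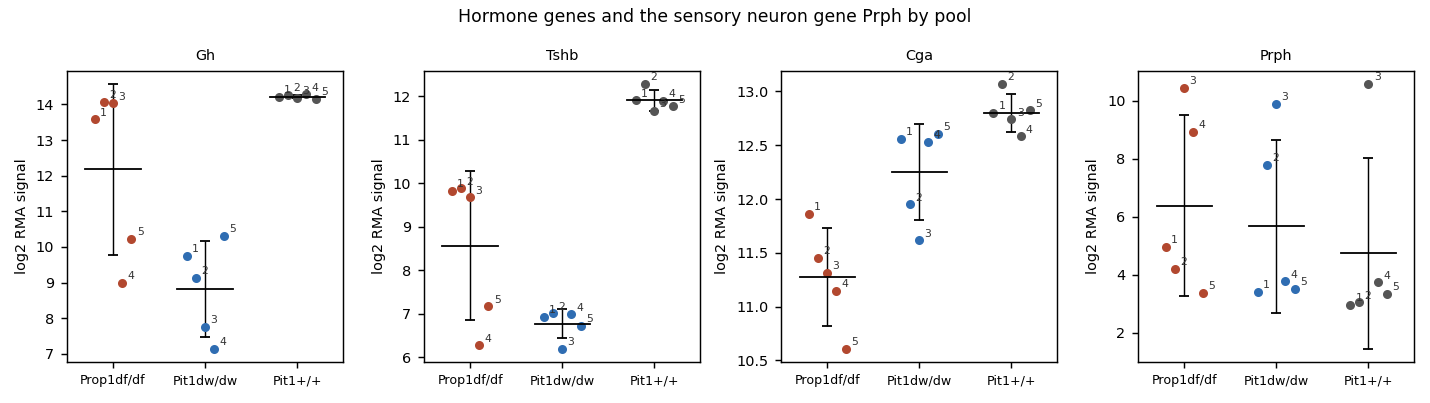
Log2 RMA signal (y axis) of Gh, Tshb, Cga and Prph in each pool of Prop1df/df, Pit1dw/dw and Pit1+/+ (x axis). Points are pools with their numbers, the line is the mean and the bar is 1 SD. Prop1df/df pools 1, 2 and 3 sit at 13.6 to 14.1 for Gh and pools 4 and 5 at 9.0 and 10.2.

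Bcl2, the guardian that keeps cells alive by holding Bax and Bak1 in check, was the only member with probe sets past the test. Its brightest probe set was not among them. Of the 22 member probe sets, 2 were higher in Prop1df/df than in Pit1+/+ and 0 lower, both of them for Bcl2, at a limma p adjusted over all probe sets (Benjamini-Hochberg) below 0.05. Over all 45037 probe sets 7.44% passed, 2.83% as higher and 4.61% as lower, so 2 of 22 (9.09%) is near the background in either direction. An unadjusted p below 0.05 was also reached by 2 of the 22, where 20.8% of all probe sets reached it. Against Pit1dw/dw, 1 member probe set passed as higher in Prop1df/df, again for Bcl2, and 0 as lower, where 5% of all probe sets passed in either direction, 2.08% as higher and 2.92% as lower. An unadjusted p below 0.05 was reached there by 6 members and by 18.6% of all probe sets. Between Pit1dw/dw and Pit1+/+, 0 of 22 passed, where 0.371% of all probe sets did, and 3 had an unadjusted p below 0.05, as had 7% of all probe sets. The smallest adjusted p of a member there was 0.529. The comparisons share pools and are not independent of each other.

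The median log2 change of the 22 members was 0.12 for Prop1df/df minus Pit1+/+, 0.04 for Pit1dw/dw minus Pit1+/+ and 0.12 for Prop1df/df minus Pit1dw/dw. Over all probe sets these medians were 0.02, -0.01 and 0.02. In Prop1df/df minus Pit1+/+ 18 of the 22 members had a positive change, of which 16 did not pass the test, and 52.5% of all probe sets had one. A positive change was found for 14 members in Pit1dw/dw minus Pit1+/+, against 47.4% of all probe sets, and for 17 in Prop1df/df minus Pit1dw/dw, against 53%. These counts are of probe sets, and those of the same gene are not independent. With probe sets averaged by gene, Casp8, Bcl2l11 and Bak1 had a negative change in Prop1df/df minus Pit1+/+ and the other measured genes a positive one. In Pit1dw/dw minus Pit1+/+ only Bcl2l1 and Casp9 were positive, and in Prop1df/df minus Pit1dw/dw only Bak1 was negative. In pooled whole pituitary, fewer cells of a type and less RNA per cell cannot be told apart.

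**Figure D2:**
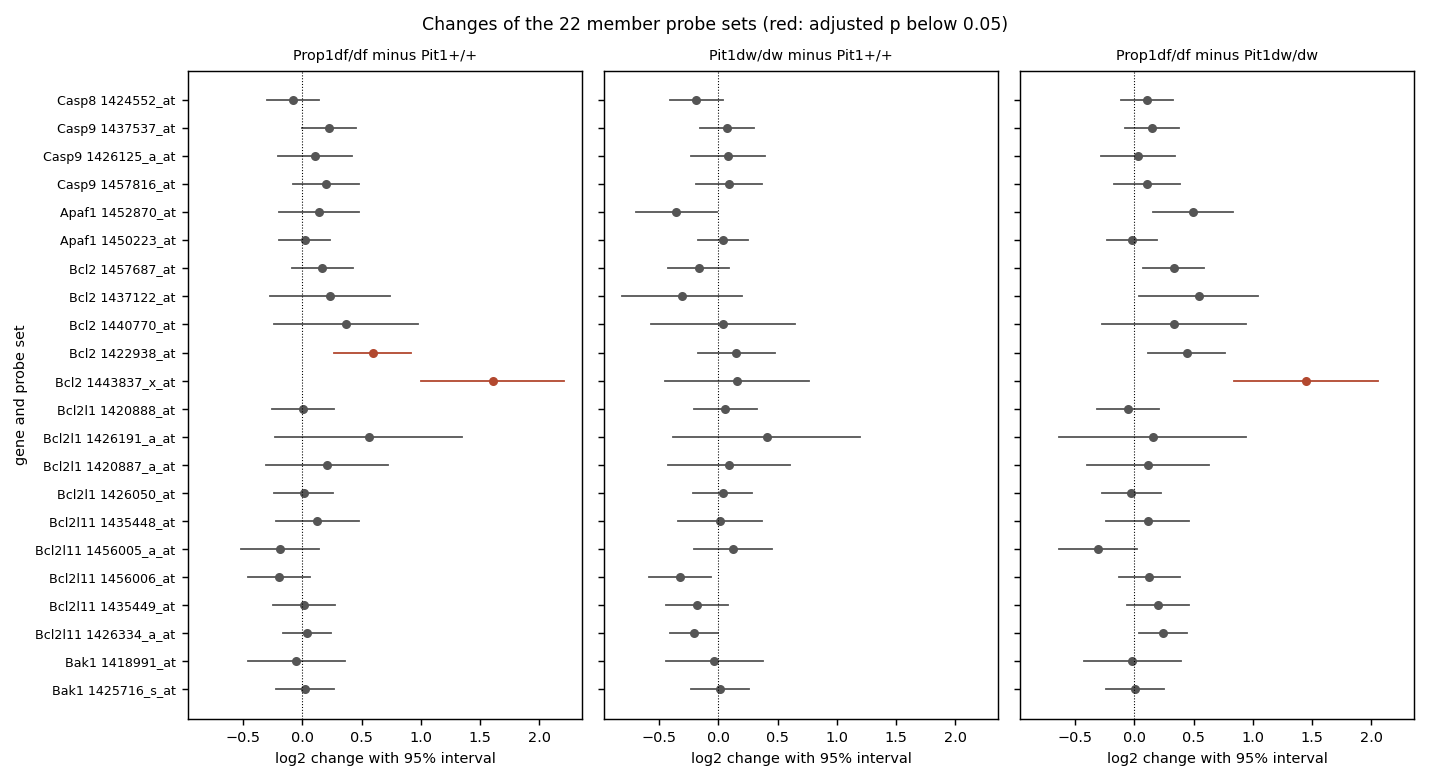
Log2 change (x axis) with its 95% interval for each of the 22 member probe sets (y axis) in the 3 comparisons, from the limma fit. Red marks an adjusted p below 0.05: 2 Bcl2 probe sets in Prop1df/df minus Pit1+/+, 1 in Prop1df/df minus Pit1dw/dw and 0 in Pit1dw/dw minus Pit1+/+.

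Casp8 (1424552_at, gene at chr1:58795233-58847503 on GRCm38.p6, RefSeq, as for the genes that follow) starts the death receptor route. It gave 5.32, 5.18, 5.33, 5.01 and 5.39 in Prop1df/df pools 1 to 5, 5.16, 5.18, 5.17, 5.25 and 4.96 in Pit1dw/dw, and 5.15, 5.45, 5.5, 5.26 and 5.28 in Pit1+/+. The groups overlapped throughout, with means of 5.25 ± 0.15, 5.14 ± 0.11 and 5.33 ± 0.14 (SD, n = 5 each) in that order. The change was -0.08 for Prop1df/df minus Pit1+/+ (95% interval -0.30 to 0.14, adjusted p = 0.724) and -0.19 for Pit1dw/dw minus Pit1+/+ (-0.41 to 0.04, adjusted p = 0.807). For Prop1df/df minus Pit1dw/dw it was 0.11 (-0.11 to 0.33, adjusted p = 0.625).

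Apaf1 (chr10:90989311-91082743), the scaffold of the apoptosome, had its lowest values in Pit1dw/dw. Its brighter probe set (1452870_at) gave 6.85, 6.53, 6.26, 6.07 and 6.25 in Prop1df/df pools 1 to 5, 6.01, 5.80, 5.82, 5.85 and 6.0 in Pit1dw/dw, and 6.13, 6.32, 6.08, 5.96 and 6.76 in Pit1+/+. Every Prop1df/df pool lay above every Pit1dw/dw pool, while Pit1+/+ overlapped both. The order of means was Prop1df/df 6.39, Pit1+/+ 6.25 and Pit1dw/dw 5.90, and no neighbours in it passed the test. Prop1df/df minus Pit1dw/dw came to 0.49 (SE 0.16, 95% interval 0.15 to 0.83), a 1.41-fold difference with an unadjusted limma p of 0.0071 that missed the threshold after adjustment (adjusted p = 0.0958). Among all probe sets, 2.96% had every Prop1df/df pool above every Pit1dw/dw pool. Pit1dw/dw minus Pit1+/+ was -0.35 (-0.69 to -0.01, adjusted p = 0.682) and Prop1df/df minus Pit1+/+ 0.14 (-0.20 to 0.48, adjusted p = 0.665). The other probe set (1450223_at) lay between 2.82 and 3.26 on every array, below the array-wide median of 4.37, with changes of -0.02 to 0.04.

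Casp9 (chr4:141793612-141815978), the caspase that the apoptosome activates, did not pass the test in any comparison. Its brightest probe set (1437537_at) read 8.72, 8.78, 8.90, 8.97 and 8.54 in Prop1df/df, 8.59, 8.66, 8.80, 8.68 and 8.43 in Pit1dw/dw, and 8.57, 8.38, 8.72, 8.48 and 8.62 in Pit1+/+. Pools 1 to 4 of Prop1df/df were level with or above the highest Pit1+/+ pool and pool 5 lay among the others. The means stood in the order Prop1df/df 8.78, Pit1dw/dw 8.63 and Pit1+/+ 8.55, with no neighbours past the test. The change was 0.23 for Prop1df/df minus Pit1+/+ (95% interval -0.0026 to 0.45, adjusted p = 0.247), 0.08 for Pit1dw/dw minus Pit1+/+ (-0.15 to 0.30, adjusted p = 0.973) and 0.15 for Prop1df/df minus Pit1dw/dw (-0.08 to 0.38, adjusted p = 0.487). The remaining probe sets, 1426125_a_at and 1457816_at, were dim, and across the 15 arrays they correlated with 1437537_at at -0.24 and 0.01.

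**Figure D3:**
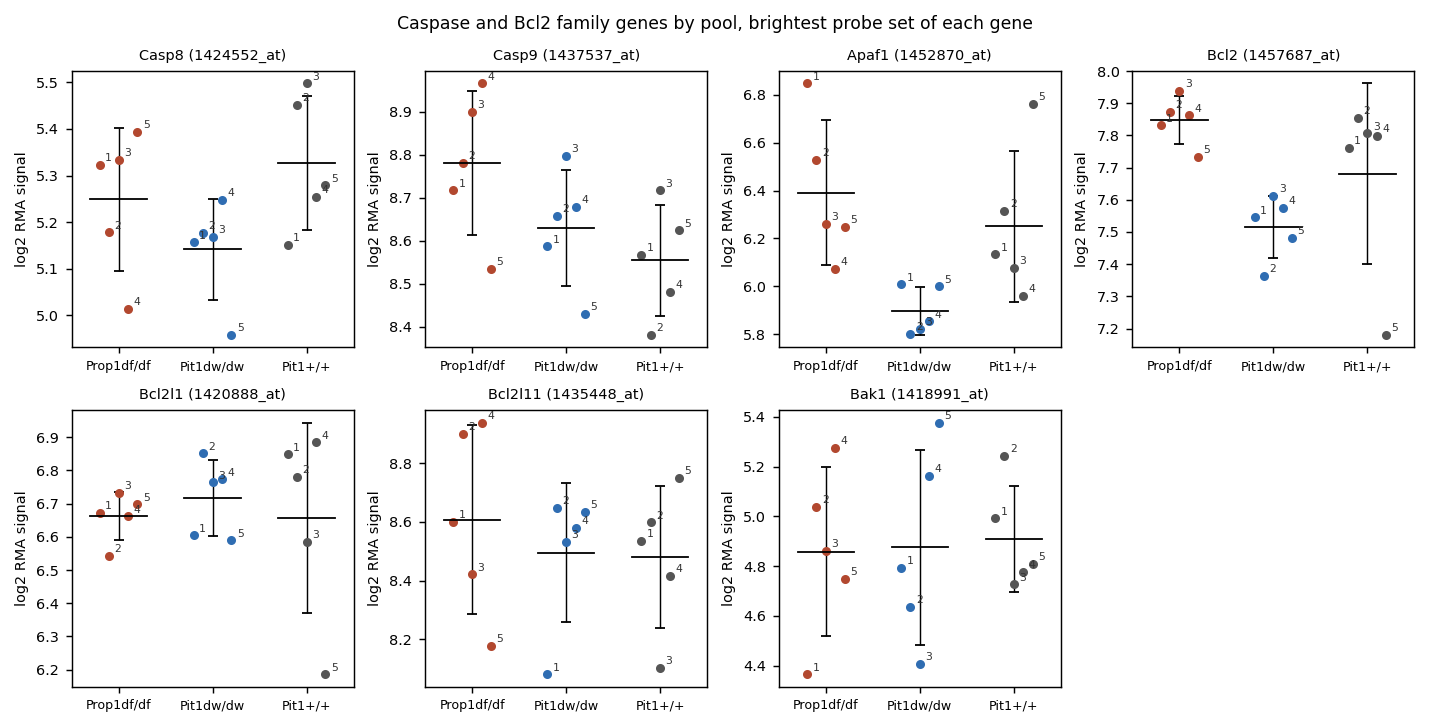
Log2 RMA signal (y axis, a scale of its own in each panel) of the brightest probe set of each measured member by pool, in Prop1df/df, Pit1dw/dw and Pit1+/+ (x axis). Points are pools with their numbers, the line is the mean and the bar 1 SD (n = 5). For Apaf1 and Bcl2 every Prop1df/df pool lies above every Pit1dw/dw pool, and the other panels overlap.

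Bcl2 (chr1:106538176-106714290) had 5 probe sets, and they did not all move alike. The widest difference was at 1443837_x_at, whose suffix marks probes that may also match other transcripts. It gave 4.91, 5.26, 4.95, 5.81 and 3.71 in Prop1df/df pools 1 to 5, 3.74, 3.97, 3.14, 3.38 and 3.17 in Pit1dw/dw, and 3.12, 3.37, 3.40, 3.23 and 3.49 in Pit1+/+. All Prop1df/df pools were above all Pit1+/+ pools, and pool 5 of Prop1df/df fell among those of Pit1dw/dw. The change was 1.61 (SE 0.29, 95% interval 1.00 to 2.21), or 3.04-fold, for Prop1df/df minus Pit1+/+ (limma adjusted p = 0.00214) and 1.45 (SE 0.29), or 2.73-fold, for Prop1df/df minus Pit1dw/dw (adjusted p = 0.00582). Pit1dw/dw minus Pit1+/+ was 0.16 (-0.45 to 0.76, adjusted p = 0.984). Both Pit1 groups lay below the median of all values, 4.37, and the deposited values carry no detection calls, so it is not known whether the probe set stood above background there. Without the Prop1df/df pools high in Gh the change against Pit1+/+ was 1.44 (adjusted p = 0.0895) and against Pit1dw/dw 1.28 (adjusted p = 0.168), with 2 Prop1df/df pools left. Without the pools high in Prph it was 1.32 (adjusted p = 0.0317) and 1.20 (adjusted p = 0.0853).

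The probe set 1422938_at passed against Pit1+/+. It gave 4.62, 4.95, 4.42, 4.88 and 4.81 in Prop1df/df, 3.76, 4.46, 4.12, 4.43 and 4.70 in Pit1dw/dw, and 4.16, 4.11, 4.23, 4.06 and 4.14 in Pit1+/+. The Pit1+/+ pools were tightly spaced and all lay below Prop1df/df, and Pit1dw/dw spread across both. Prop1df/df minus Pit1+/+ was 0.60 (SE 0.15, 95% interval 0.27 to 0.92), 1.51-fold, at a limma adjusted p of 0.0257. Among all probe sets, 2.41% had every Prop1df/df pool above every Pit1+/+ pool, and 2 of the 22 members did, this one and 1443837_x_at. Leaving out single pools lost the call for Prop1df/df pools 2 (adjusted p = 0.0724), 4 (0.0594) and 5 (0.0579) and for Pit1+/+ pools 1 (0.0523), 2 (0.0583) and 4 (0.0629). It was also lost without the pools high in Gh (0.71, adjusted p = 0.0918) or Prph (0.68, adjusted p = 0.0775). Prop1df/df minus Pit1dw/dw was 0.44 (adjusted p = 0.123) and Pit1dw/dw minus Pit1+/+ 0.15 (adjusted p = 0.944).

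The brightest Bcl2 probe set, 1457687_at, gave 7.83, 7.87, 7.94, 7.86 and 7.73 in Prop1df/df, 7.55, 7.36, 7.61, 7.57 and 7.48 in Pit1dw/dw, and 7.76, 7.85, 7.81, 7.80 and 7.18 in Pit1+/+. All Prop1df/df pools exceeded all Pit1dw/dw pools, and 4 Pit1+/+ pools lay with Prop1df/df while pool 5 lay below every other array. Prop1df/df minus Pit1dw/dw was 0.33 (SE 0.12, unadjusted p = 0.0148, adjusted p = 0.145). Prop1df/df minus Pit1+/+ was 0.17 (adjusted p = 0.469) and Pit1dw/dw minus Pit1+/+ -0.16 (adjusted p = 0.894). Without Pit1+/+ pool 5 these were 0.04 (adjusted p = 0.788) and -0.29 (adjusted p = 0.254). At 1437122_at Prop1df/df pools ran from 5.62 to 7.05, Pit1dw/dw pools from 5.39 to 6.43 and Pit1+/+ pools from 6.10 to 6.20, with changes of 0.24 against Pit1+/+ (adjusted p = 0.622) and 0.54 against Pit1dw/dw (adjusted p = 0.234). At 1440770_at the ranges were 5.61 to 6.96, 5.56 to 6.19 and 5.35 to 6.89 in the same order of groups, with Prop1df/df changes of 0.37 against Pit1+/+ and 0.33 against Pit1dw/dw, neither past the test.

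Averaging the 5 Bcl2 probe sets in each pool gave 6.20, 6.23, 5.79, 6.32 and 5.55 in Prop1df/df, 5.26, 5.52, 5.23, 5.45 and 5.53 in Pit1dw/dw, and 5.42, 5.39, 5.39, 5.36 and 5.56 in Pit1+/+. Prop1df/df pool 5 was level with the highest pools of the other groups and the other 4 lay above them. The means were 6.02 ± 0.33, 5.40 ± 0.14 and 5.42 ± 0.08 (SD, n = 5 each) in that order. With 1 averaged value for each of 18193 genes, where 9.66% of genes passed, Prop1df/df minus Pit1+/+ was 0.60 (SE 0.13, 95% interval 0.31 to 0.88, limma adjusted p = 0.00934). Against Pit1dw/dw, where 5.86% of genes passed, it was 0.62 (0.34 to 0.90, adjusted p = 0.0103). Pit1dw/dw minus Pit1+/+ was -0.02 (-0.31 to 0.26, adjusted p = 0.987). The calls were lost without the pools high in Gh (0.51, adjusted p = 0.146, against Pit1+/+, and 0.53, adjusted p = 0.163, against Pit1dw/dw) and without those high in Prph (0.56, adjusted p = 0.0663, and 0.58, adjusted p = 0.114). The mean includes 1443837_x_at and 1422938_at, whose changes against Pit1+/+ were 1.61 and 0.60, while the other probe sets changed by 0.17 to 0.37. It is therefore not separate evidence from their calls, and 1443837_x_at weighs most in it. Across the 15 arrays, pairs of Bcl2 probe sets correlated at -0.36 to 0.62.

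**Figure D4:**
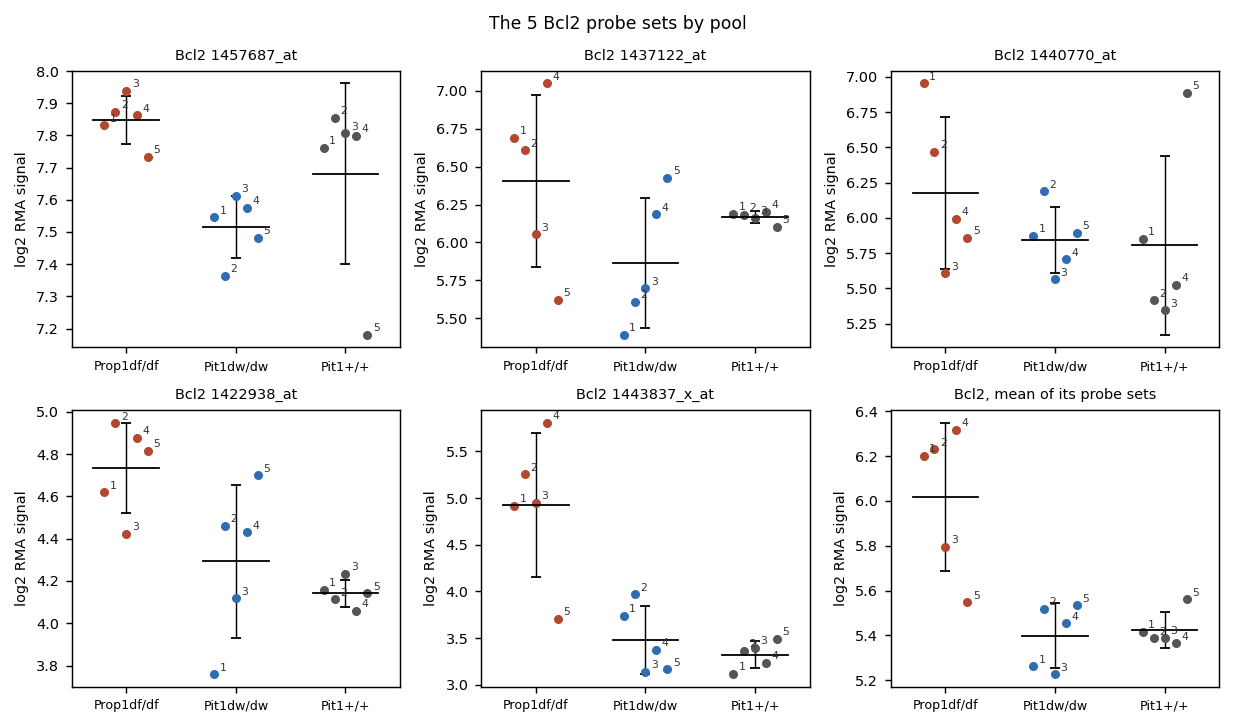
Log2 RMA signal (y axis, a scale of its own in each panel) of the 5 Bcl2 probe sets and of their mean by pool in Prop1df/df, Pit1dw/dw and Pit1+/+ (x axis). Points are pools with their numbers, lines are means and bars 1 SD (n = 5). The 1443837_x_at panel has Prop1df/df pools at 3.71 to 5.81 and Pit1+/+ pools at 3.12 to 3.49.

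Some cell type markers also differed between the groups, mainly the endocrine ones. Of 8 measured pituitary endocrine and progenitor markers, 6 were lower in Prop1df/df than in Pit1+/+ and 3 were lower in Pit1dw/dw than in Pit1+/+. Between the mutants, 1 of the 8 was higher in Prop1df/df than in Pit1dw/dw and 3 were lower. The marker counts were not repeated without Prop1df/df pools 1, 2 and 3, which were high in Gh. Tshb was also higher in those pools (9.83, 9.89 and 9.68) than in Prop1df/df pools 4 and 5 (6.28 and 7.17). Of 5 bone and cartilage markers, 1 was higher in Prop1df/df in both comparisons, and the mean over the list ran from 7.19 to 8.77 in Prop1df/df, from 5.99 to 7.93 in Pit1dw/dw and from 4.4 to 7.75 in Pit1+/+. Of 6 ganglion and Schwann markers 0 passed, with list means of 5.22 to 10.1 in Prop1df/df, 5.62 to 9.85 in Pit1dw/dw and 5.00 to 10.5 in Pit1+/+. The lowest value of any probe set on any array was 1.83, and without detection calls a value above it does not show that a marker was present. Of 4 markers of lymphocytes and granulocytes, 1 was lower in each mutant than in Pit1+/+. Of the 7 macrophage, 5 endothelial, 3 red cell, 4 neural lobe and 7 proliferation genes, 0 passed in any comparison. Means over the proliferation list ran from 6.97 to 7.81 in Prop1df/df, from 7.11 to 7.42 in Pit1dw/dw and from 7.44 to 7.94 in Pit1+/+. In that mean every Pit1dw/dw pool lay below every Pit1+/+ pool, and the mean itself was not tested. The median change of its 7 genes against Pit1+/+ was -0.40 in Prop1df/df and -0.30 in Pit1dw/dw. The part of these differences in the Bcl2 result was not tested.

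Bcl2l1 (chr2:152758732-152833803) encodes Bcl-xL, the guardian closest to Bcl2 in function, and it did not pass in any comparison. Its brightest probe set (1420888_at) gave 6.67, 6.54, 6.73, 6.66 and 6.70 in Prop1df/df, 6.60, 6.85, 6.76, 6.77 and 6.59 in Pit1dw/dw, and 6.85, 6.78, 6.58, 6.88 and 6.19 in Pit1+/+. The groups lay within one another, with means of 6.66, 6.72 and 6.66 in that order. Prop1df/df minus Pit1+/+ was 0.01 (95% interval -0.26 to 0.27), Pit1dw/dw minus Pit1+/+ 0.06 (-0.20 to 0.32) and Prop1df/df minus Pit1dw/dw -0.05 (-0.32 to 0.21), with adjusted p of 0.987, 0.986 and 0.855. The dimmer 1426191_a_at and 1420887_a_at ran from 2.79 to 5.10 and from 3.29 to 4.60 over the 15 arrays, and correlated across them (r = 0.87). Their changes for Prop1df/df minus Pit1+/+ were 0.56 (-0.23 to 1.35, adjusted p = 0.424) and 0.21 (-0.30 to 0.73, adjusted p = 0.673). The probe set 1426050_at stayed between 2.43 and 3.04.

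Bcl2l11 (chr2:128126038-128162547) encodes Bim, the BH3-only protein that binds every guardian and can start the mitochondrial route. Its brightest probe set (1435448_at) gave 8.60, 8.90, 8.42, 8.94 and 8.18 in Prop1df/df, 8.08, 8.65, 8.53, 8.58 and 8.63 in Pit1dw/dw, and 8.54, 8.60, 8.10, 8.42 and 8.75 in Pit1+/+. No group stood apart, and pools of the same genotype differed by more than the group means of 8.61, 8.50 and 8.48. The changes were 0.13 for Prop1df/df minus Pit1+/+ (-0.22 to 0.48), 0.01 for Pit1dw/dw minus Pit1+/+ (-0.34 to 0.37) and 0.11 for Prop1df/df minus Pit1dw/dw (-0.24 to 0.46), all with adjusted p above the threshold. The probe set 1456005_a_at gave 7.45, 7.22, 7.53, 7.36 and 7.24 in Prop1df/df, 7.30, 7.66, 7.67, 7.93 and 7.79 in Pit1dw/dw, and 7.29, 7.54, 7.53, 7.28 and 8.10 in Pit1+/+. All Prop1df/df pools were below Pit1dw/dw pools 2 to 5, and the change of -0.31 (-0.64 to 0.02) had an adjusted p of 0.302.

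The 3 dim Bcl2l11 probe sets had their lowest mean in Pit1dw/dw, and none passed in any comparison. At 1456006_at Pit1dw/dw minus Pit1+/+ was -0.32 (95% interval -0.58 to -0.06, unadjusted p = 0.0177, adjusted p = 0.529), with values of 3.52 to 3.85 in Pit1dw/dw and 3.79 to 4.18 in Pit1+/+. At 1426334_a_at the same change was -0.20 (adjusted p = 0.707), and Prop1df/df minus Pit1dw/dw was 0.24 (unadjusted p = 0.0226, adjusted p = 0.181). At 1435449_at Pit1dw/dw minus Pit1+/+ was -0.18 (adjusted p = 0.867) and Prop1df/df minus Pit1dw/dw 0.20 (adjusted p = 0.41).

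Bak1 (chr17:27019812-27028627), which forms pores in the outer mitochondrial membrane, did not pass in any comparison. Its brighter probe set (1418991_at) gave 4.37, 5.04, 4.86, 5.28 and 4.75 in Prop1df/df, 4.79, 4.64, 4.41, 5.16 and 5.38 in Pit1dw/dw, and 4.99, 5.24, 4.73, 4.78 and 4.81 in Pit1+/+. The means of 4.86 ± 0.34, 4.88 ± 0.39 and 4.91 ± 0.21 (SD, n = 5 each) were close and the pools overlapped. The intervals ran from -0.46 to 0.36 for Prop1df/df minus Pit1+/+, from -0.44 to 0.38 for Pit1dw/dw minus Pit1+/+ and from -0.43 to 0.39 for Prop1df/df minus Pit1dw/dw. The other probe set (1425716_s_at) lay between 2.27 and 2.89.

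The wider pathway was read through 65 further genes in 7 lists, of which 56 were measured by 124 probe sets. For Prop1df/df minus Pit1+/+ 1 probe set passed as higher (0.806%) and 4 as lower (3.23%). For Prop1df/df minus Pit1dw/dw 1 passed as higher and 3 as lower, and for Pit1dw/dw minus Pit1+/+ 0 of 124 passed. An unadjusted limma p below 0.05 was reached by 20, 24 and 5 in those comparisons, beside 20.8%, 18.6% and 7% of all probe sets. The median change was 0.01, -0.01 and -0.03 in the same order. The shares past the adjusted threshold were not above those over all probe sets given earlier. Without the pools high in Prph 0 passed in any comparison, and without those high in Gh 1 passed for Prop1df/df minus Pit1+/+ and 0 for Prop1df/df minus Pit1dw/dw. Without Pit1+/+ pool 5, 13 passed for Prop1df/df minus Pit1+/+, where 14.5% of all probe sets passed.

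Casp6 is an executioner caspase, and it was lower in Prop1df/df. Its probe set 1415995_at gave 4.53, 4.45, 4.64, 5.01 and 4.97 in Prop1df/df, 5.62, 5.39, 5.23, 5.41 and 5.16 in Pit1dw/dw, and 5.21, 5.27, 5.52, 5.47 and 5.15 in Pit1+/+. All Prop1df/df pools lay below all others, by -0.60 (SE 0.13, adjusted p = 0.00994) against Pit1+/+ and -0.64 (SE 0.13, adjusted p = 0.00857) against Pit1dw/dw. Of all 45037 probe sets, 1757 had every Prop1df/df pool below every Pit1+/+ pool, and 1904 below every Pit1dw/dw pool. Without the Prop1df/df pools high in Gh the changes were -0.33 (adjusted p = 0.342) and -0.37 (adjusted p = 0.321), and without the pools high in Prph -0.63 (adjusted p = 0.0566) and -0.75 (adjusted p = 0.0545). A second probe set, 1458715_at, gave 3.57, 3.62, 3.53, 3.96 and 3.61 in Prop1df/df, 4.75, 4.80, 4.83, 4.60 and 3.96 in Pit1dw/dw, and 3.99, 4.15, 3.56, 3.71 and 4.26 in Pit1+/+. Here Pit1dw/dw pools 1 to 4 lay above all other pools, and Prop1df/df overlapped Pit1+/+. Prop1df/df minus Pit1dw/dw was -0.93 (adjusted p = 0.0041), Prop1df/df minus Pit1+/+ -0.28 (adjusted p = 0.397) and Pit1dw/dw minus Pit1+/+ 0.65 (adjusted p = 0.199, past the threshold in 2 of 19 alternatives). The call between the mutants was lost without the pools high in Prph (-0.83, adjusted p = 0.0667) and without those high in Gh (-0.80, adjusted p = 0.155). Casp6 was the 1 gene to pass among 6 caspases measured besides the members.

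Of 11 death receptor genes, 1 fell against Pit1+/+. Tnfsf10 encodes the death ligand TRAIL, and at 1439680_at it gave 4.34, 4.29, 4.23, 3.73 and 3.87 in Prop1df/df, 4.85, 4.73, 4.67, 5.01 and 4.77 in Pit1dw/dw, and 4.80, 5.35, 4.50, 4.42 and 5.58 in Pit1+/+. Every Prop1df/df pool was below every other pool, by -0.84 (SE 0.20, adjusted p = 0.0183) against Pit1+/+ and -0.71 (adjusted p = 0.0571) against Pit1dw/dw. The counts of such probe sets over the whole array are those given for Casp6. The call was lost without Pit1+/+ pool 2 (-0.73, adjusted p = 0.0559), without the pools high in Prph (-0.87, adjusted p = 0.0738) and in a fit of only those groups (-0.84, adjusted p = 0.069). Without the pools high in Gh it was -1.13 (adjusted p = 0.0439). Its other 2 probe sets changed by -0.28 and -0.31 against Pit1+/+ and did not pass.

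Among 8 BH3-only genes besides Bcl2l11, Bad rose in Prop1df/df. Bad, which is held inactive by phosphorylation downstream of growth factors, gave 7.75, 8.09, 8.81, 8.41 and 8.24 at 1416582_a_at in Prop1df/df, 7.24, 7.43, 7.48, 7.42 and 7.53 in Pit1dw/dw, and 7.81, 7.36, 7.91, 7.75 and 6.87 in Pit1+/+. The pools did not overlap between the mutants. The change was 0.72 (SE 0.20, adjusted p = 0.0401) against Pit1+/+ and 0.84 (SE 0.20, adjusted p = 0.0222) against Pit1dw/dw. The call against Pit1+/+ was lost in 10 of 20 alternatives, 6 of them leaving out 1 pool (Prop1df/df pools 2 to 5, Pit1+/+ pools 2 and 4), with adjusted p up to 0.166. Without the pools high in Prph it was 0.58 (adjusted p = 0.166) against Pit1+/+ and 0.63 (adjusted p = 0.195) against Pit1dw/dw, and without those high in Gh 0.79 (adjusted p = 0.108) and 0.91 (adjusted p = 0.0758). Arrays centred on their medians gave 0.67 (adjusted p = 0.072) against Pit1+/+. Against Pit1dw/dw it was lost in 5 of 20, among them without Prop1df/df pool 4 (adjusted p = 0.0511) and without Pit1dw/dw pool 1 (0.053) or 4 (0.0526). Its other probe set, 1416583_at, changed by 0.39 (adjusted p = 0.508) and 0.69 (adjusted p = 0.242). Bid, which links Casp8 to the mitochondrion, had its highest values in Pit1dw/dw pools 1 to 4 at the dim 1447873_x_at. It ran from 2.63 to 2.82 in Prop1df/df, gave 3.31, 3.34, 3.44, 3.18 and 2.78 in Pit1dw/dw, and ran from 2.55 to 2.94 in Pit1+/+, so Prop1df/df lay with Pit1+/+. Prop1df/df minus Pit1dw/dw was -0.47 (adjusted p = 0.0318), Prop1df/df minus Pit1+/+ -0.01 (adjusted p = 0.973) and Pit1dw/dw minus Pit1+/+ 0.46 (adjusted p = 0.18, past the threshold in 2 of 18 alternatives). The call between the mutants held in 7 of 18 alternatives. It was lost without Prop1df/df pool 1, 2, 4 or 5, without any of Pit1dw/dw pools 1 to 4 (adjusted p of up to 0.0919), without the pools high in Prph (-0.39, adjusted p = 0.219) and without those high in Gh (-0.44, adjusted p = 0.295). Its other 2 probe sets differed by 0.24 and -0.02 between the mutants.

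Of 10 genes of mitochondrial release and execution, 1 fell against Pit1+/+. Endog, a mitochondrial nuclease, gave 3.92, 4.98, 5.12, 5.11 and 4.77 in Prop1df/df, 5.14, 4.81, 5.44, 5.38 and 5.56 in Pit1dw/dw, and 5.83, 5.49, 5.49, 5.77 and 5.10 in Pit1+/+ at 1421097_at. Pool 1 of Prop1df/df lay well below the rest. The change was -0.76 (SE 0.22, adjusted p = 0.0481), and it held in 8 of 20 alternatives. Without Prop1df/df pool 1 it was -0.54 (adjusted p = 0.0929), and leaving out Prop1df/df pool 2 or 5 or any of Pit1+/+ pools 1 to 4 also lost it, with adjusted p of up to 0.12. It was -0.99 (adjusted p = 0.0508) without the pools high in Prph and -0.59 (adjusted p = 0.238) without those high in Gh. Endog 1438317_a_at changed by -0.52 (adjusted p = 0.139).

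Birc2, an inhibitor of apoptosis protein with ubiquitin ligase activity, was the 1 gene of 7 in its list to pass. At 1418854_at it gave 8.19, 8.12, 8.25, 8.12 and 8.21 in Prop1df/df, 8.36, 8.31, 8.12, 8.36 and 8.11 in Pit1dw/dw, and 8.65, 8.53, 8.42, 8.69 and 8.61 in Pit1+/+. Both mutants lay wholly below Pit1+/+. Of all 45037 probe sets, 1757 had every Prop1df/df pool below every Pit1+/+ pool, and 613 had every Pit1dw/dw pool below them. Prop1df/df minus Pit1+/+ was -0.40 (SE 0.09, adjusted p = 0.0115), and Pit1dw/dw minus Pit1+/+ was -0.33 (SE 0.09, adjusted p = 0.228). The change of Pit1dw/dw passed in 1 of 21 alternatives, with array weights (-0.36, adjusted p = 0.038). Their difference, Prop1df/df minus Pit1dw/dw, was -0.07 (adjusted p = 0.71). The Prop1df/df call was lost without the pools high in Gh (-0.41, adjusted p = 0.13) and without those high in Prph (-0.45, adjusted p = 0.0598).

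In the other lists no gene passed in any comparison. The 6 measured genes of the rest of the Bcl2 family, which includes the guardian Mcl1, had their smallest adjusted p at Bcl2l14 1424814_a_at, where Prop1df/df minus Pit1dw/dw was 0.46 (adjusted p = 0.0623). The 8 measured genes around p53 had theirs at Trp63 1452027_a_at, where the same change was 0.45 (adjusted p = 0.0774). Both probe sets lay below the median of all values on average. Trp63 encodes a relative of p53.

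**Figure D5:**
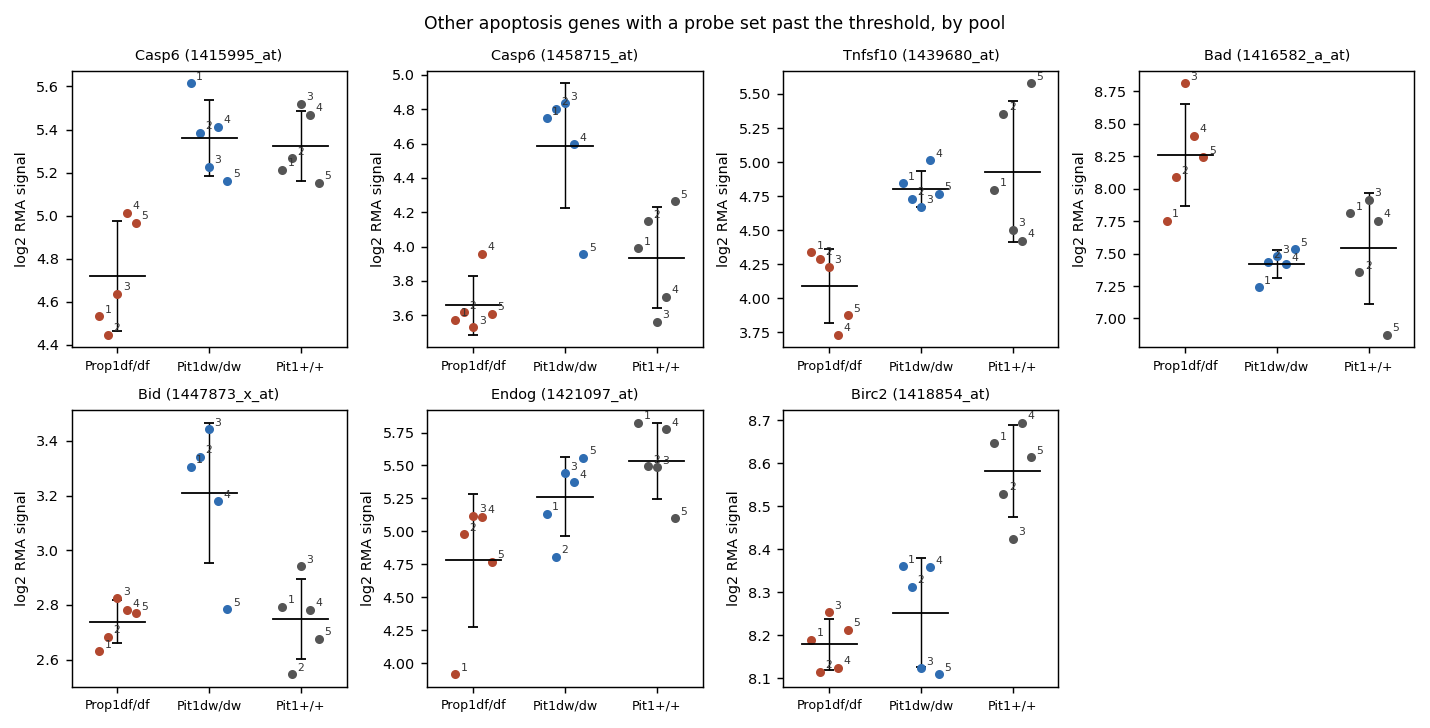
Log2 RMA signal (y axis, a scale of its own in each panel) by pool of the 7 other apoptosis probe sets that passed in a comparison, in Prop1df/df, Pit1dw/dw and Pit1+/+ (x axis). Points are pools with their numbers, lines are means and bars 1 SD (n = 5). Casp6 1415995_at and Tnfsf10 lie lowest in Prop1df/df, Bad lies highest there, and Birc2 lies below Pit1+/+ in both mutants.

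For each member, the 3 genes with the most similar profile to its brightest probe set were taken by Pearson correlation over the 15 arrays, as a description. The arrays share groups, so group differences enter these values, and the highest of many correlations are high by selection. For Bcl2 they were Prmt9 (0.92), Msh3 (0.91) and Hdgfl3 (0.91). For Apaf1 they were 4931408D14Rik (0.93), Septin3 (0.92) and Ddx47 (0.90). The other members had Anln (0.86) for Casp8, Gab1 (0.88) for Casp9, Znfx1 (0.87) for Bcl2l1, Kmt2a (0.91) for Bcl2l11 and Arfrp1 (0.91) for Bak1 as the nearest. No member was among the 3 nearest genes of another member.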

How the data were processed

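RNA of pooled newborn pituitaries was hybridised to Affymetrix Mouse Genome 430 2.0 arrays after biotin cRNA labelling, per the labels' protocols. The authors deposited log2 RMA signals. RMA is named in the submitters' processing notes without a version or settings. RMA fits all arrays of a run together, so values are not independent between arrays. Samples were grouped by title, 5 pools in each of 3 groups.

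Of 45101 probe sets, 64 controls were left out, and every other was tested on its own in 1 model of the 15 arrays (limma 3.58.1, R 4.3.3; lmFit, eBayes, two-sided), with Benjamini-Hochberg adjustment over 45037. The annotation gave 34945 of them 1 gene, 932 several and 9160 none. Folds are differences of log2 RMA signal, which are compressed at low signal. The pools are labelled as biological replicates. Precision is set by the number of arrays. The fit was also run on simulated data with independent errors, unlike these arrays, so that run is no support for the calls reported here.

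Members, gene lists and tests were chosen with earlier results of these data known. All members were named with every probe set. Of the pathway lists the text names each gene with a probe set past the threshold and, in lists with none, the one of smallest p.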

Additional observations from a re-analysis of the deposited data

Results flagged for a closer look

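Each of the 22 member probe sets was searched in each group of 5 pools for a pool far from the others (Dixon's test), 66 searches in all. Chance flags about 1 group in 20, and 3 of 66 (4.55%) were flagged. At Casp9 1457816_at, Pit1+/+ pool 4 read 2.47, and the next lowest pool read 2.81. At Bcl2 1457687_at, Pit1+/+ pool 5 read 7.18, and the next lowest pool read 7.76. At Bcl2l11 1435448_at, Pit1dw/dw pool 1 read 8.08, and the next lowest pool read 8.53.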

How the results depend on the processing

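Of the changes of single probe sets followed through the alternatives, 14 passed the threshold and 0 of these turned their sign. Of the 76 that did not pass, 31 crossed 0 in some setting, none of them past the threshold there, and the largest of these as reported was 0.15 in size. The members past the threshold for Prop1df/df minus Pit1+/+ were 2. They were 0 with the highest probe set of each gene and without the pools high in Gh, and 1 with probe sets averaged by gene, without dim probe sets, without the suffixes _x_at, _s_at and _a_at, and without the pools high in Prph. Leaving out 1 pool gave 1 to 2. For Prop1df/df minus Pit1dw/dw the 1 member became 0 with the highest probe set, without dim probe sets, without those suffixes and without the pools high in Prph or Gh, 2 after a second quantile normalisation and 5 with array weights. Leaving out 1 pool kept the count at 1, and for Pit1dw/dw minus Pit1+/+ it was 0 throughout. Array weights also brought Apaf1 1452870_at (0.52, adjusted p = 0.0131) and Bcl2l11 1456005_a_at (-0.40, adjusted p = 0.0449) past the threshold against Pit1dw/dw. The 124 other apoptosis probe sets had 14, 3 and 14 calls with array weights for Prop1df/df minus Pit1+/+, Pit1dw/dw minus Pit1+/+ and Prop1df/df minus Pit1dw/dw, where 5, 0 and 4 were reported. Over all 45037 probe sets array weights also raised the calls, to 7770, 721 and 4963 in that order. The rise was thus not confined to apoptosis genes. Over all probe sets, 3350 passed for Prop1df/df minus Pit1+/+, but 1920 with the highest probe set, 1757 with the mean, 7770 with array weights, 2166 with only the 2 groups, 1399 without the pools high in Gh and 2379 to 6532 without 1 pool (the most without Pit1+/+ pool 5). The 167 for Pit1dw/dw minus Pit1+/+ became 721 with array weights, 53 without the pools high in Prph and 97 to 180 without 1 pool. The 2254 for Prop1df/df minus Pit1dw/dw became 1139, 1066 and 4963 with the highest probe set, the mean and array weights, 1336 and 968 without the pools high in Prph and Gh, and 1602 to 2749 without 1 pool. The cause was not tested, except that the settings with 1 value for each gene test fewer features and those without pools use fewer samples. The settings without Gh-high pools, and all settings for the pathway genes and the Bcl2 mean, were added after seeing the data. The replicate block gave 3560, 165 and 2501 calls over all probe sets and 2, 0 and 1 members. Same-numbered pools correlated at -0.374 to 0.656 in their deviations, and at most 2 of 5 correlated best with their own number. Pools numbered 3 correlated at 0.656, 0.543 and 0.421 in the 3 comparisons, and the other numbers at -0.374 to 0.366. These values do not decide whether some numbers were paired.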
